A study of Mus musculus with 12 samples.

Results

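Long intergenic noncoding RNAs (lincRNAs) that were expressed in primary mouse cortical neurons are described here across treatment with erinacine S and time in culture. The table deposited by the authors holds 51912 genes, of which 4873 carry the gene type lincRNA. The lincRNAs described are the 224 chosen by a mean of at least 2 TPM (transcripts per 1e6 transcripts) over the 12 libraries, leaving out the imprinted transcripts H19, Meg3, Rian, Mirg and Peg13 by name, 3 of which would otherwise have passed. Of all lincRNA genes, 2783 were listed at 0 in all 12 libraries and 327 reached a mean of 1 TPM. Since the members were selected on their mean TPM, levels are given as a description. The neurons came from cortices of C57BL/6J embryos at embryonic day 17.5, and treatment began on the day of plating; the labels do not say how many embryos went into a dish. The groups were erinacine S at 1 µg/mL for 48 h, DMSO (the solvent) for 48 h, erinacine S at 1 µg/mL for 16 h and DMSO for 16 h, with 3 libraries each. Erinacine S is a compound of the lion's mane mushroom Hericium erinaceus, and the title of the series ties it to neuronal regeneration. The design text speaks of 3 independent repeats, with no word on litters, so p-values measure the spread between these libraries.

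A lincRNA is transcribed and usually spliced and polyadenylated like a messenger RNA, but has no known protein product and lies between protein-coding genes. Some act at the site of transcription, some are structural parts of nuclear bodies, some bind proteins or microRNAs, and some serve mainly as the precursor of the small RNAs in their introns or exons. Many are restricted to the nervous system, and several were first described by their pattern in the developing cortex or retina.

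The libraries carried the markers of the labelled cell type. The 9 neuron markers summed to 5546 to 5665 TPM in erinacine S and 5439 to 5704 TPM in DMSO at 48 h, and to 4224 to 4882 TPM in erinacine S and 4094 to 4591 TPM in DMSO at 16 h, while the 7 endothelial and pericyte markers reached at most 3.08 TPM in total. Erinacine S 48 h replicate 1 stood apart from the other libraries of its time. Its sum was 259 TPM for radial glia and intermediate progenitors (738 to 816 TPM in the other 5 libraries at 48 h), 151 TPM for dividing cells (292 to 315 TPM), 49.3 TPM for astrocytes (109 to 132 TPM) and 1906 TPM for interneurons (874 to 1356 TPM). In bulk RNA, fewer cells of a type and less RNA per cell cannot be told apart. TPM keep no read depth, so the counting precision is unknown.

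The expressed lincRNAs spanned 3 orders of magnitude, with a median of 5.68 TPM, 69 members of at least 10 TPM and 13 of at least 100 TPM. At the threshold, M5C1000I18Rik (2.03 TPM), 6230400D17Rik (2.02 TPM) and C130026L21Rik (2.00 TPM) lay just inside, and AC122013.2 (2.00 TPM), 1700040D17Rik (1.99 TPM) and C030037D09Rik (1.99 TPM) just outside. In 36 members at least 1 group mean was under 2 TPM. By far the highest row was Gm42418, with a mean of 3206 TPM, which lies at chr17:39846958-39848788 beside Gm26917 and under AY036118 on the other strand, at the site where the genome holds a copy of ribosomal DNA. Gm42418 had 2759, 2160 and 2146 TPM in erinacine S and 3640, 2390 and 2429 TPM in DMSO at 48 h, and 2711, 3460 and 6886 TPM in erinacine S and 2863, 2594 and 4432 TPM in DMSO at 16 h. Without these 3 rows the other 221 lincRNAs took 0.437% to 0.502% of the TPM of a library, and with them 0.685% to 1.18%. The first 10 of the 221 held 51.0% of their summed TPM.

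Gm3764, the host of a copy of miR-9, averaged 427 TPM and came next after Gm42418, followed by 2900097C17Rik (310 TPM, named Norad in RefSeq), 6330403K07Rik (271 TPM, annotated as protein-coding in RefSeq), AI480526 (247 TPM, an uncertain level since 82.3% of its words occur in other transcripts) and Miat (228 TPM, also known as Gomafu). C130071C03Rik, which hosts another copy of miR-9, averaged 226 TPM, Mir124a-1hg, a host of miR-124, averaged 193 TPM, and Malat1 averaged 190 TPM. The neighbours in this order mostly overlapped library by library. The spread between replicates was larger than for genes in general: the median coefficient of variation per group was 11.4% to 16.2% for the lincRNAs and 6.25% to 11.0% for all tested genes.

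**Figure D1:**
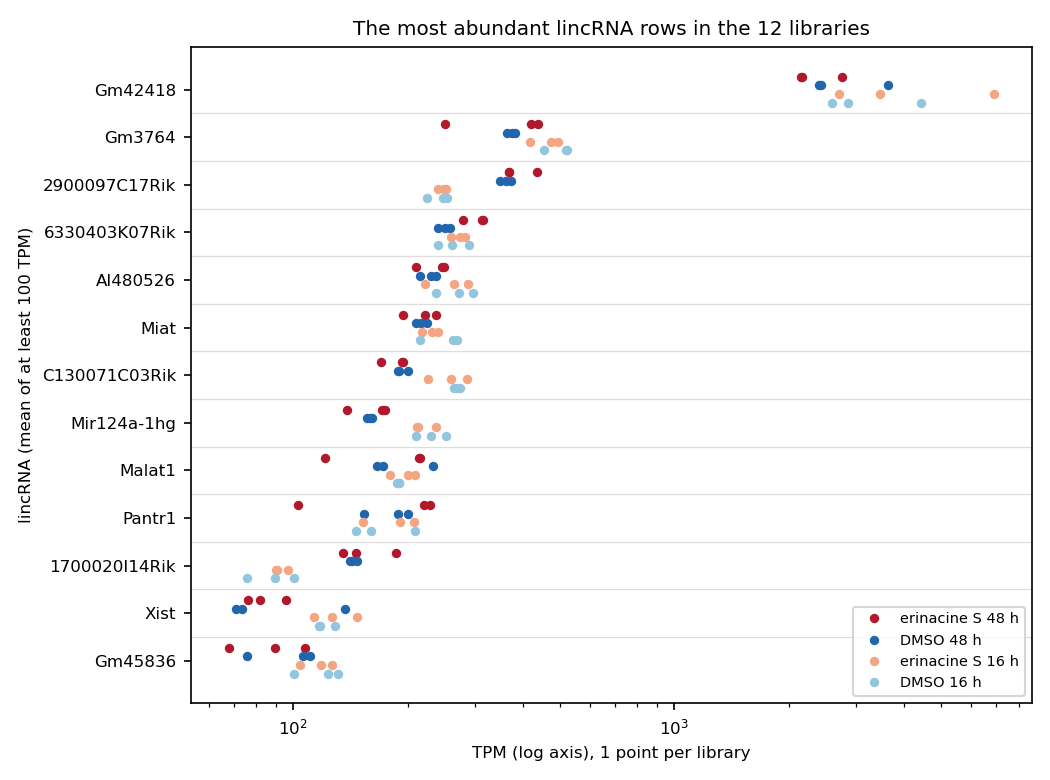
TPM of the 13 lincRNA rows with a mean of at least 100 TPM, 1 point per library on a log axis, coloured by group. Gm42418 lies above 2000 TPM in every library, and 2900097C17Rik and 1700020I14Rik have all 6 libraries at 48 h above all 6 at 16 h.

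Most members are thinly annotated: 90 carry a Gm number, 80 a Rik clone name and 23 the name of a genomic clone. Of the 224, 220 are in GENCODE M21, with a median exonic length of 2212 bases (204 to 20771), and 50 have a single exon. RefSeq (GRCm38.p6) matched 135 by symbol or synonym, 124 of them as long noncoding RNA and 8 as protein-coding genes. A divergent arrangement, with the start within 2000 bases of a protein-coding start on the other strand, held for 52 members, and in 26 an exon overlapped an exon of a protein-coding gene, in 24 of these on the opposite strand. The library kit keeps strand, per the labels, but whether strand was used in quantification is not given in the sources used here, so for these members reads of the partner cannot be told apart.

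Sequence shared with other transcripts limits some rows. Of 220 members, 99 had no 50-base word of their longest GENCODE M21 transcript in the transcripts of any other gene on either strand, 46 shared at least 10% of their words and 18 at least 50%. Gm7292 shared 77.5% with 2900097C17Rik, Gm27000 shared 93.7% with Meg3, Gm45733 shared 69.3% with a retained-intron transcript of Baz2a, and AY036118 shared 100% with Gm42418 on the opposite strand. Values of these rows are given as uncertain.

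Whether erinacine S alters the lincRNAs was asked first at 16 h. None of the 224 was called at a limma adjusted p under 0.05, and neither was any other gene (0% of 15623 tested). At an unadjusted p under 0.05 there were 3 lincRNAs (1.34%, against 1.29% of all genes tested), 2 higher (0.672% of all genes) and 1 lower (0.614%). In 8 lincRNAs (3.57%, against 4.19% of all genes) the libraries of both groups did not overlap, with erinacine S higher in 7 (2.62% of all genes) and lower in 1 (1.56%). The unadjusted count was 11 without DMSO 16 h replicate 2 (324 of all genes). With the replicate number as a block it was 1 higher and 3 lower (219 of all genes in either direction). When each of the 12 libraries was left out in turn it ran from 2 to 11 lincRNAs and from 174 to 424 of all genes. The smallest p for a higher level was that of Gm37233, with 4.31, 3.82 and 4.42 TPM in erinacine S and 3.22, 3.07 and 2.99 TPM in DMSO (log2 fold change 0.34 ± 0.13 SE on the log2(TPM + 1) scale, used for all fold changes here). The smallest for a lower level was that of Mir670hg, with 13.1, 17.3 and 20.3 TPM in erinacine S and 28.8, 18.8 and 29.2 TPM in DMSO (-0.56 ± 0.23 SE). Neither passed the test.

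At 48 h of erinacine S again none of the 224 lincRNAs was called by limma (0.134% of all genes tested were, 21 genes, with 0.0192% higher and 0.115% lower). At an unadjusted p under 0.05 there were 30 lincRNAs (13.4%, against 8.96% of all genes), 22 of them higher in erinacine S (4.87% of all genes were called higher this way) and 8 lower (4.09% of all genes). The libraries of both groups did not overlap in 38 lincRNAs (17%, against 19.3% of all genes), with erinacine S higher in 28 (10.5% of all genes) and lower in 10 (8.74%). The lincRNA nearest to the threshold was AL590503.1, on chromosome 13, with no described function. It had 11.7, 8.06 and 9.51 TPM in erinacine S and 4.62, 5.56 and 3.83 TPM in DMSO, so that each erinacine S library was above each DMSO library. The log2 fold change was 0.92 ± 0.16 SE, with a limma adjusted p of 0.0573. The highest value was that of replicate 1, the library that stood apart in its cell type markers. Without that library AL590503.1 was not called either. At 16 h it had 4.39, 5.81 and 4.72 TPM in erinacine S and 5.08, 4.04 and 3.84 TPM in DMSO.

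Mir670hg, at chr2:94160636-94264918 on the minus strand, had the largest difference in the other direction. This transcript spans the hairpins of miR-670 and of a copy of miR-129, a microRNA abundant in neurons. At 48 h Mir670hg had 23.7, 13.3 and 14.8 TPM in erinacine S and 35.5, 35.9 and 45.9 TPM in DMSO, a log2 fold change of -1.17 ± 0.23 SE with a limma adjusted p of 0.0917. The highest erinacine S library was replicate 1, the library that stood apart in its cell type markers. Without that library Mir670hg fell by 1.41 on the log2 scale (limma adjusted p 0.0128), as did 5033430I15Rik by 0.84 (limma adjusted p 0.0429), and these were the 2 lincRNAs then called (0.893%, against 0.73% of all genes tested, 114 genes). 5033430I15Rik starts 245 bases from the start of Atxn1 on the other strand. With all libraries it had 23.0, 12.2 and 11.5 TPM in erinacine S and 21.4, 20.3 and 24.4 TPM in DMSO at 48 h (-0.54 ± 0.22 SE, limma adjusted p 0.510). The mature microRNAs within Mir670hg (RefSeq, GRCm38.p6) are shown with the seed, bases 2 to 8, in capitals, because the seed sets which targets each can pair with.
mmu-miR-670-5p: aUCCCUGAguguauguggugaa
mmu-miR-670-3p: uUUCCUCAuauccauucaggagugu
mmu-miR-129-5p: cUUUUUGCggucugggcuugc
mmu-miR-129-2-3p: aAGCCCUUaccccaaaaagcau
Their own levels were not measured by this assay. The RefSeq promoter window of Mir670hg nearest to the deposited 5′ end runs from 250 bases before to 50 bases after a start that lies 170 bases upstream of that end, at chr2:94265039-94265338 on the minus strand (GRCm38.p6). It is shown because Mir670hg is the lincRNA with the largest erinacine S difference at 48 h on the log2(TPM + 1) scale; by the ratio of mean TPM, AY036118 (4.06) and Gm12371 (2.61) differed more than Mir670hg (0.442).
Mir670hg promoter: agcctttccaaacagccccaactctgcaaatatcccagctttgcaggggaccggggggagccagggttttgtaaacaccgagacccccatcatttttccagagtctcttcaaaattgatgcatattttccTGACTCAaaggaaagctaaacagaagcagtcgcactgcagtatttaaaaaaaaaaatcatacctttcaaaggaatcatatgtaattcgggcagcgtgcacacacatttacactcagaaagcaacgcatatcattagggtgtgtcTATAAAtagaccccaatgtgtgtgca
Capitals mark a match to the AP-1 motif TGANTCA, which 7.81% of all promoter windows hold on either strand, and one to the TATA box TATAAA, which 13.6% hold. The TATAAA lies within the 50 bases after the RefSeq start and not before it, so it is given as a match of letters only. No match to the CRE (TGACGTCA) or the E-box (CACGTG) was found in these letters.

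The other lincRNAs with the smallest p at 48 h differed by less. Gm43672, which starts 510 bases from Tbl1xr1 on the other strand, had 4.42, 4.42 and 5.37 TPM in erinacine S and 6.64, 7.26 and 7.12 TPM in DMSO (-0.48 ± 0.11 SE, limma adjusted p 0.171), while Tbl1xr1 itself differed by -0.04. D230017M19Rik had 5.67, 5.51 and 5.32 TPM in erinacine S and 3.99, 4.16 and 3.88 TPM in DMSO (0.38 ± 0.10 SE, limma adjusted p 0.236). Gm1976 (0.38), Gm8066 (0.45), Gm9916 (-0.63) and Gm26794 (-0.34) did not pass the test either. With a weight estimated for each library, 27 lincRNAs were called at 48 h, 18 higher and 9 lower (12.1%, against 10.2% of all genes, 1599 genes), and 7 of the 8 just named were then called. The erinacine S effect at 48 h minus that at 16 h was called in none of the 224 (0% of all genes tested). Of this difference, 9 lincRNAs had an unadjusted p under 0.05 (4.02%, against 2.77% of all genes), 8 of them with a higher effect at 48 h (1.27% of all genes) and 1 with a lower (1.5%). That count was 17 without DMSO 16 h replicate 2 (728 of all genes), 15 without erinacine S 48 h replicate 1 (641) and 6 without DMSO 16 h replicate 3 (480). With all libraries it was 432 of all genes.

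**Figure D2:**
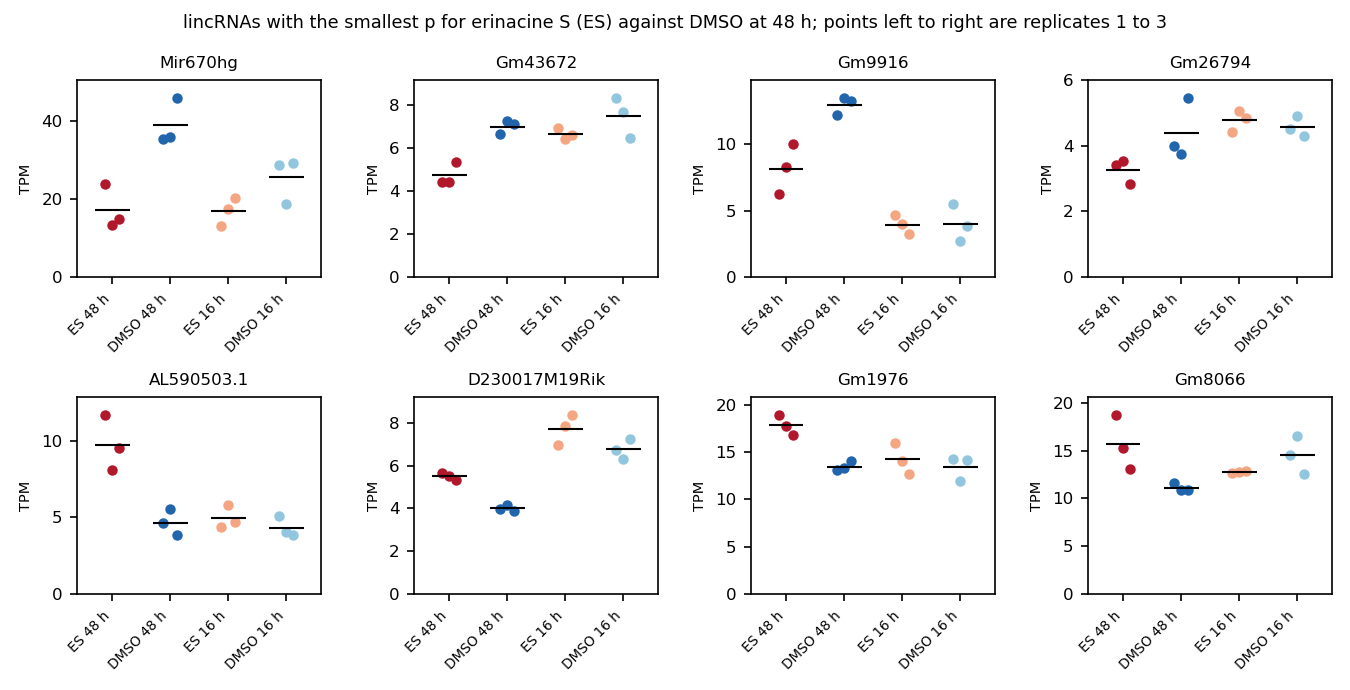
TPM per library of the 8 lincRNAs with the smallest p for erinacine S (ES) against DMSO at 48 h, 4 lower in the upper row and 4 higher in the lower row; points are replicates 1 to 3 and the bar is the mean. In the Mir670hg panel erinacine S 48 h replicate 1 lies at 23.7 TPM, between the other erinacine S libraries and the DMSO libraries.

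Time in culture moved many more lincRNAs, and mostly downwards. In DMSO, 88 of the 224 (39.3%) were called between 48 h and 16 h by limma, against 32.7% of all genes tested. Of these 74 were lower at 48 h (33% of lincRNAs, against 16.6% of all genes) and 14 higher (6.25%, against 16.1% of all genes). In erinacine S, 78 (34.8%) were called, against 30.6% of all genes, with 59 lower (26.3%, against 15.5%) and 19 higher (8.48%, against 15.1%). The median log2 fold change over the 224 was -0.23 in erinacine S and -0.27 in DMSO, against -0.03 over all genes tested in each. The libraries of 48 h and 16 h did not overlap in 110 lincRNAs in erinacine S (44.9% of all genes), with 77 lower at 48 h (23.7%) and 33 higher (21.2%). In DMSO they did not overlap in 120 (50.5% of all genes), with 98 lower (26.4%) and 22 higher (24.1%).

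**Figure D3:**
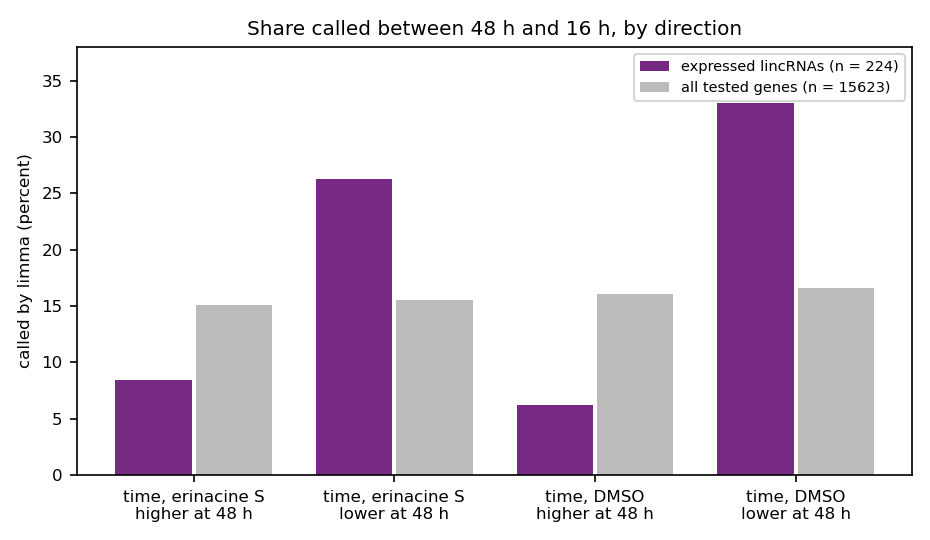
Percent of the 224 lincRNAs (purple) and of the 15623 tested genes (grey) called between 48 h and 16 h, for erinacine S and DMSO and by direction. The share of lincRNAs lower at 48 h is 26.3% in erinacine S and 33% in DMSO, against 15.5% and 16.6% of all genes.

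Falls outnumbered rises in each class of lincRNA counted. In DMSO 24 fell and 6 rose among the 69 of at least 10 TPM, and 50 fell and 8 rose among the 155 of 2 to 10 TPM. Of the 198 with no exon overlapping a coding exon, 65 fell and 12 rose, and of the 174 with under 10% of words shared with another gene, 62 fell and 9 rose. Among other noncoding types in DMSO, 54 of 155 antisense RNAs fell (34.8%) and 4 rose (2.58%). Of 162 processed transcripts, 58 fell (35.8%) and 6 rose (3.7%), while of 11962 protein-coding genes 2017 fell (16.9%) and 2286 rose (19.1%). Of 1014 processed pseudogenes, 87 fell (8.58%) and 49 rose (4.83%), beside 16.6% and 16.1% of all genes. In erinacine S, 61 of these pseudogenes fell (6.02%) and 66 rose (6.51%), beside 15.5% and 15.1% of all genes. Cell type markers moved over the same interval. The summed oligodendrocyte lineage markers were 74.7 to 195 TPM in erinacine S and 210 to 242 TPM in DMSO at 48 h, and 70.3 to 103 TPM in erinacine S and 65.7 to 116 TPM in DMSO at 16 h. Of these 8 markers, 7 rose in DMSO and 3 in erinacine S. Astrocyte markers summed to 49.3 to 132 TPM in erinacine S and 109 to 125 TPM in DMSO at 48 h, and to 56.4 to 72.2 TPM in erinacine S and 54.4 to 72.5 TPM in DMSO at 16 h. Of 6 tested astrocyte markers, 1 rose in DMSO and none was called in erinacine S. Radial glia and intermediate progenitor markers summed to 259 to 816 TPM in erinacine S and 738 to 784 TPM in DMSO at 48 h, and to 447 to 543 TPM in erinacine S and 478 to 587 TPM in DMSO at 16 h. Of these 10 markers, 3 fell and none rose in erinacine S, and 2 fell and 2 rose in DMSO, so the sum does not stand for each marker. For astrocytes and for radial glia and intermediate progenitors, the lowest 48 h sum was that of erinacine S replicate 1. Microglia and macrophage markers summed to 1.30 to 8.69 TPM in erinacine S and 16.3 to 23.2 TPM in DMSO at 48 h, and to 24.4 to 36.6 TPM in erinacine S and 20.7 to 39.3 TPM in DMSO at 16 h. Markers of dividing cells summed to 151 TPM in erinacine S 48 h replicate 1 and to 281 to 338 TPM in the other 11 libraries, and 2 of the 10 fell with time in erinacine S and none was called in DMSO. The part of these shifts in the lincRNA result was not tested.

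The group means of both treatments came from separate libraries, but their tests shared an estimate of spread over all 12 libraries. Same-numbered libraries of both treatments also deviated together at 16 h, so the overlap of calls is not independent replication. The calls in both treatments ran in the same direction. Lower in both were 50 lincRNAs (84.7% of those lower in erinacine S and 67.6% of those lower in DMSO), higher in both were 12 (63.2% and 85.7%), and none was called in opposite directions. In 120 of the 224 no change with time was called in either treatment. Calls that stood when any one of the 12 libraries was left out numbered 46 in erinacine S (34 lower, 12 higher) and 48 in DMSO (39 lower, 9 higher). Without erinacine S 48 h replicate 1, 69 of the 224 lincRNAs were called in erinacine S, 55 lower and 14 higher. Of all 15623 genes tested, 3982 were then called, 2092 lower and 1890 higher. The overlap of calls and the calls that stood were not counted over all genes, so neither is given as a trait of lincRNAs.

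**Figure D4:**
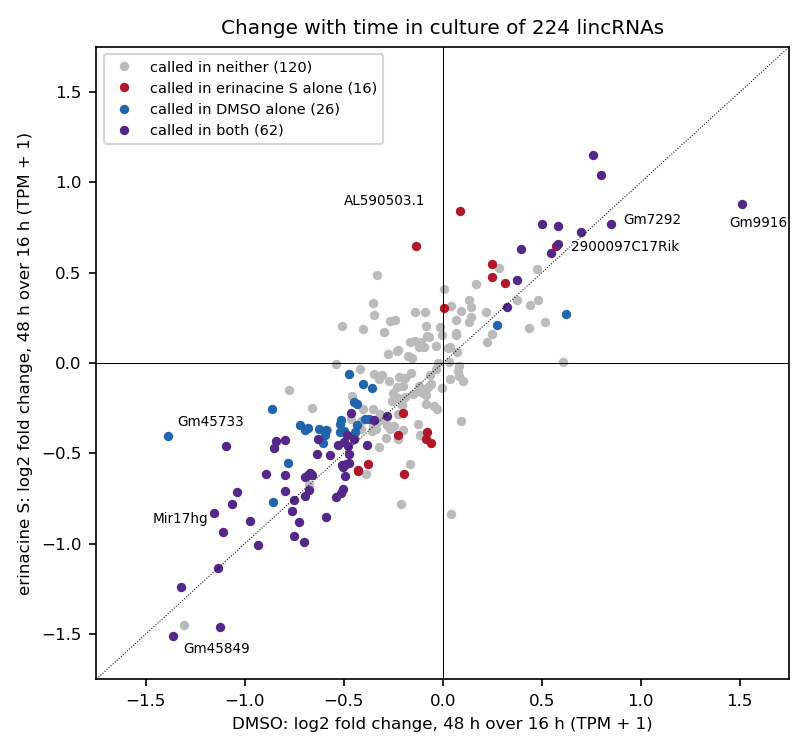
Log2 fold change with time (48 h over 16 h) of each of the 224 lincRNAs in DMSO (x axis) and in erinacine S (y axis), coloured by where it was called; the dotted line marks equal change. All 62 lincRNAs called in both lie in the lower left or the upper right part of the plot, and Gm9916 has the largest rise in DMSO (1.51).

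The most abundant lincRNA to rise was 2900097C17Rik, at chr2:156388065-156392979 on the minus strand. This is Norad, a cytoplasmic RNA known in human cells for binding Pumilio proteins through many copies of their recognition element. It had 436, 368 and 369 TPM in erinacine S and 373, 363 and 349 TPM in DMSO at 48 h, and 249, 252 and 240 TPM in erinacine S and 254, 247 and 224 TPM in DMSO at 16 h. The 48 h libraries were all above the 16 h libraries. The log2 fold change with time was 0.66 ± 0.08 SE in erinacine S (limma adjusted p 0.000132) and 0.58 ± 0.08 SE in DMSO (limma adjusted p 0.000228). Its 4915-base transcript holds 11 copies of the Pumilio motif TGTANATA, the most of any of the 220 lincRNAs with a GENCODE M21 transcript, of which 164 hold none. A subset of these elements is shown with 8 bases on either side, the motif in capitals, read from GENCODE M21 transcripts (GRCm38, minus strand of chromosome 2).
element 1, chr2:156392314-156392337: aagtcctgTGTATATAatatgaaa
element 2, chr2:156391818-156391841: aaacatgcTGTAAATAcctttttg
element 3, chr2:156391629-156391652: cttttcttTGTACATAgtgtatgt
element 10, chr2:156390211-156390234: tactactaTGTATATAggggacaa
Elements 1 to 9 occur with the same 8 flanking bases in Gm7292, and elements 10 and 11 do not. Gm7292, a single-exon row of 2527 bases at chr6:117716342-117718868, holds 9 copies of the motif, the second highest count. It had 117, 92.3 and 86.5 TPM in erinacine S and 105, 89.9 and 99.6 TPM in DMSO at 48 h, and 63.8, 54.2 and 53.0 TPM in erinacine S and 55.6, 65.6 and 42.8 TPM in DMSO at 16 h. Its change with time was 0.77 ± 0.15 SE in erinacine S and 0.85 ± 0.15 SE in DMSO (limma adjusted p 0.00273 and 0.00134). The ratio of 2900097C17Rik to Gm7292 lay between 3.51 and 5.23 in the 12 libraries. Because most of the letters of Gm7292 are those of 2900097C17Rik, its rise cannot be told apart from reads of 2900097C17Rik.

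1700020I14Rik, at chr2:119594297-119607502, also rose. It is Oip5os1, or Cyrano, a conserved RNA known for a site that pairs extensively with miR-7 and leads to loss of that microRNA in the mouse brain. It had 186, 146 and 135 TPM in erinacine S and 142, 147 and 141 TPM in DMSO at 48 h, and 90.8, 97.1 and 90.4 TPM in erinacine S and 101, 89.7 and 75.6 TPM in DMSO at 16 h. No library of 48 h was as low as any of 16 h, and the log2 fold change was 0.73 ± 0.12 SE in erinacine S and 0.70 ± 0.12 SE in DMSO (limma adjusted p 0.000986 and 0.00109). The site lies at chr2:119602137-119602161 (GRCm38), and is shown with the microRNA (RefSeq, GRCm38.p6). Capitals in the site mark letters that pair with bases 2 to 8 and with bases 11 to 23 of miR-7, and capitals in the microRNA its seed.
miR-7 site of 1700020I14Rik: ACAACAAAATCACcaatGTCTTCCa
mmu-miR-7a-5p: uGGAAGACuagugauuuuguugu

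The microRNA hosts fell more often than they rose. Of the 21 lincRNAs counted as microRNA hosts, 18 span a hairpin by position, and the 3 hosts of miR-124 were added by name. In erinacine S, 8 of the 21 fell (38.1%, against 15.5% of all genes and 26.3% of the 224 lincRNAs) and none rose. In DMSO, 13 of the 21 fell (61.9%, against 16.6% and 33%) and none rose. The median log2 fold change was -0.36 in erinacine S and -0.48 in DMSO, beside -0.23 and -0.27 for all 224 lincRNAs. The shares were lower in a list of microRNA hosts drawn up by name, of any gene type, with 14 tested genes. Of these, 4 fell in erinacine S (28.6%, close to the 26.3% of the 224 lincRNAs) and 6 in DMSO (42.9%), and none rose. Of the 3 hosts of miR-124, 1 fell in both treatments, 1 in DMSO alone and 1 passed in neither. Mir124a-1hg, host of a copy of the neuronal miR-124 and known from retina as Rncr3, had 139, 174 and 171 TPM in erinacine S and 159, 161 and 156 TPM in DMSO at 48 h, and 211, 237 and 213 TPM in erinacine S and 252, 230 and 210 TPM in DMSO at 16 h. All 48 h libraries lay below all 16 h libraries. It fell by 0.45 in erinacine S (limma adjusted p 0.00375) and by 0.53 in DMSO (0.00133). Mir124-2hg fell by 0.44 in DMSO (limma adjusted p 0.0396), and its difference of -0.38 in erinacine S did not pass. The Mir124-2hg call was lost without any of the DMSO libraries other than 16 h replicate 1. Gm27032, which lies at the third locus, differed by -0.34 and -0.28 and did not pass.

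All 3 loci of miR-9, a microRNA of neural progenitors and neurons, lie in members. C130071C03Rik on chromosome 13 fell by 0.46 in erinacine S and by 0.48 in DMSO (limma adjusted p 0.00193 and 0.00135), with 170 to 194 TPM in erinacine S and 189 to 200 TPM in DMSO at 48 h, against 225 to 286 TPM in erinacine S and 264 to 274 TPM in DMSO at 16 h. Gm3764 on chromosome 3 differed by -0.36 and -0.41 and Mir9-3hg on chromosome 7 by -0.03 and -0.42, none of which passed. The RNA made from each of the 3 loci is the same.
mmu-miR-9-5p: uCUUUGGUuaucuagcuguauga
Mir17hg at chr14:115042879-115046727 is the precursor of the miR-17 to miR-92 cluster, which is known for promoting proliferation. It had 2.76, 4.67 and 5.67 TPM in erinacine S and 3.97, 4.93 and 4.31 TPM in DMSO at 48 h, and 7.54, 11.3 and 8.49 TPM in erinacine S and 11.1, 10.3 and 10.5 TPM in DMSO at 16 h. The 2 times did not overlap, and Mir17hg fell by 0.93 in erinacine S (limma adjusted p 0.00407) and by 1.11 in DMSO (0.00134). Its main mature microRNAs (RefSeq, GRCm38.p6) fall into groups by seed, in capitals: miR-17 and miR-20a share a seed, as do miR-19a and miR-19b.
mmu-miR-17-5p: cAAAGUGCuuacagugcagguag
mmu-miR-20a-5p: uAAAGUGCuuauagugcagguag
mmu-miR-18a-5p: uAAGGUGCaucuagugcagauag
mmu-miR-19a-3p: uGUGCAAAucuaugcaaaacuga
mmu-miR-19b-3p: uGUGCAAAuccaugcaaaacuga
mmu-miR-92a-3p: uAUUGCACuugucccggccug
E130102H24Rik, host of miR-101a, had 19.7, 16.0 and 20.0 TPM in erinacine S and 14.1, 16.5 and 20.1 TPM in DMSO at 48 h, and 30.8, 35.4 and 31.4 TPM in erinacine S and 38.7, 35.0 and 34.6 TPM in DMSO at 16 h. It fell by 0.78 in erinacine S (limma adjusted p 0.00088) and by 1.06 in DMSO (0.000114). 6720427I07Rik, which spans the hairpin of let-7d, fell by 0.62 in erinacine S and by 0.80 in DMSO (limma adjusted p 0.00451 and 0.00101). The let-7 family is known for driving differentiation.
mmu-miR-101a-3p: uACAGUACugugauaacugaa
mmu-let-7d-5p: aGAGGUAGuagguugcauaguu
RMST_1, a region of a neurogenic RNA that spans miR-135a-2, fell by 0.71 in erinacine S (limma adjusted p 0.047) and by 1.04 in DMSO (0.00798). Its erinacine S call did not stand in every setting that left out 1 library, and its DMSO call did. Hosts that did not pass in either treatment included C78859 (miR-138-2), 4833445I07Rik (miR-191 and miR-425) and 5330434G04Rik (miR-325). Mir670hg differed by 0.01 in erinacine S and by 0.61 ± 0.23 SE in DMSO (limma adjusted p 0.986 and 0.0581), a difference between treatments that did not pass (-0.60 ± 0.32 SE, erinacine S minus DMSO). Of 13 genes for microRNA processing that were tested, 1, the export factor Xpo5, fell in both treatments and none rose. This share of 7.69% was under that of all genes that fell, 15.5% in erinacine S and 16.6% in DMSO.

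**Figure D5:**
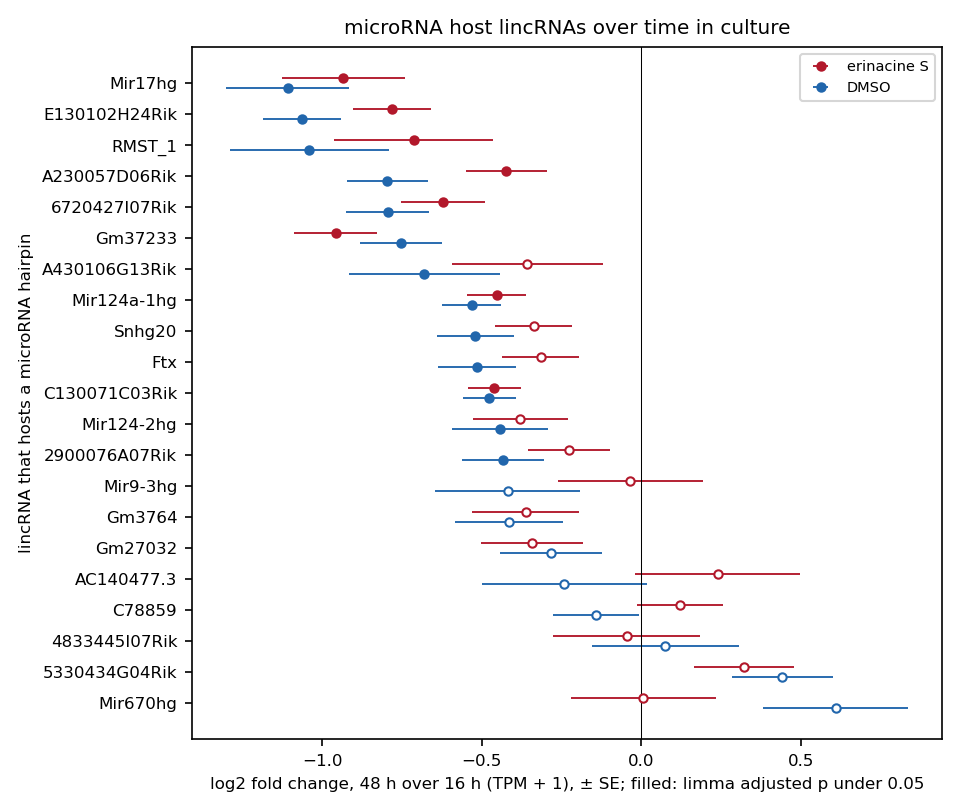
Log2 fold change with time (48 h over 16 h) with its standard error for the 21 lincRNAs counted as microRNA hosts, in erinacine S (red) and DMSO (blue). Of these, 18 span a hairpin by position, and the hosts of miR-124 were added by name. Filled points have a limma adjusted p under 0.05. Every filled point lies left of 0, and Mir17hg, E130102H24Rik and RMST_1 lie farthest left in DMSO.

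No change with time or treatment passed the test for Malat1, Miat or Neat1, nuclear RNAs with a described structural role. Malat1, a component of nuclear speckles, had 122, 216 and 214 TPM in erinacine S and 233, 172 and 166 TPM in DMSO at 48 h, and 179, 201 and 209 TPM in erinacine S and 188, 189 and 189 TPM in DMSO at 16 h. The groups overlapped, and the lowest value was that of erinacine S 48 h replicate 1. Miat, a neuronal RNA of its own nuclear compartment, had 194, 237 and 222 TPM in erinacine S and 210, 217 and 224 TPM in DMSO at 48 h, and 231, 239 and 218 TPM in erinacine S and 269, 263 and 215 TPM in DMSO at 16 h, which did not pass the test (-0.08 ± 0.09 SE in erinacine S, -0.19 ± 0.09 SE in DMSO). Its transcript is known for repeats that resemble the intron branch point and bind splicing factors. It holds 11 copies of ACTAAC, the most of the 220 lincRNAs, 162 of which hold none. The densest stretch, at chr5:112216759-112216870 on the minus strand (GRCm38, GENCODE M21), has 4 of them in capitals.
Miat repeats: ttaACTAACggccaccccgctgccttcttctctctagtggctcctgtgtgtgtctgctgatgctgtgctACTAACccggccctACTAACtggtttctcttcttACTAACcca
Neat1, the scaffold of paraspeckles, was low, with 1.97 ± 0.822 TPM in erinacine S and 1.73 ± 0.412 TPM in DMSO at 48 h (SD, n = 3 each), and 8.35, 2.45 and 2.08 TPM in erinacine S and 6.14, 2.21 and 2.55 TPM in DMSO at 16 h. Replicate 1 was the highest library in both groups at 16 h, and no change passed the test. Of the 22 tested genes for paraspeckle and speckle proteins, 11 fell (50%) and none rose in each treatment, against 15.5% of all genes lower in erinacine S and 16.6% in DMSO.

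The X-inactivation centre contributed 3 members. Xist, the RNA that coats the inactive X, had 81.9, 76.1 and 95.9 TPM in erinacine S and 137, 73.6 and 71.0 TPM in DMSO at 48 h, and 113, 126 and 147 TPM in erinacine S and 118, 129 and 117 TPM in DMSO at 16 h. It fell by 0.60 in erinacine S (limma adjusted p 0.042), and its difference of -0.43 in DMSO did not pass (0.123), where replicate 1 at 48 h lay above all 16 h libraries. Jpx, an activator of Xist, fell by 0.76 in erinacine S and by 0.75 in DMSO (limma adjusted p 0.0014 and 0.00124), with 3.05 to 3.49 TPM in erinacine S and 3.13 to 4.01 TPM in DMSO at 48 h, against 5.54 to 7.33 TPM in erinacine S and 6.16 to 7.68 TPM in DMSO at 16 h. The Xist call was lost without either of 2 erinacine S libraries at 48 h (replicates 1 and 2), 2 at 16 h (replicates 2 and 3) or any DMSO library at 16 h, with adjusted p from 0.050 to 0.134. Ftx fell by 0.52 in DMSO (0.00735), and its difference of -0.32 in erinacine S did not pass.

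Pantr1, which starts 926 bases from the neuronal transcription factor gene Pou3f3 on the other strand, had 103, 221 and 228 TPM in erinacine S and 189, 200 and 154 TPM in DMSO at 48 h, and 152, 191 and 207 TPM in erinacine S and 160, 146 and 209 TPM in DMSO at 16 h. The groups overlapped, with the lowest value in erinacine S 48 h replicate 1, and neither Pantr1 nor Pou3f3 passed the test (Pou3f3 -0.09 in erinacine S, 0.05 in DMSO). A list of lncRNAs with a described neural role or pattern, of any gene type, had 28 tested genes. It includes Gm26917, which lies at the ribosomal DNA copy, and 6330403K07Rik, which RefSeq annotates as protein-coding. Genes were matched by deposited symbol, so Gm30731 (Pnky in RefSeq) and Mir124a-1hg (Rncr3) are not counted in it. The mean TPM of Gm30731 at 48 h over that at 16 h was 0.447 in erinacine S and 0.549 in DMSO. Of the 28, 8 fell (28.6%) and 6 rose (21.4%) in erinacine S, against 15.5% and 15.1% of all genes. In DMSO 10 fell (35.7%) and 6 rose (21.4%), against 16.6% and 16.1% of all genes.

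Small nucleolar RNAs, which guide the modification of ribosomal RNA, are made from the introns of host genes. Of 21 tested host genes of any gene type, 7 fell and none rose in erinacine S (15.5% of all genes fell there), and 13 fell and none rose in DMSO (16.6% of all genes). By position, 8 of the lincRNAs span a small nucleolar or related small RNA. Of these 8, 1 fell in erinacine S (12.5%, against 26.3% of the 224 lincRNAs) and 5 in DMSO (62.5%, against 33%), and none rose. Among the lincRNAs, Snhg20 fell by 0.52 (limma adjusted p 0.00681), Snhg12 by 0.48 (0.0165) and Dancr by 0.70 (0.0182) in DMSO. In erinacine S they differed by -0.34, -0.06 and -0.37, none of which passed. The Snhg12 call was lost without DMSO 16 h replicate 3 or 48 h replicate 2, and that of Dancr without either of these or 48 h replicate 3. Snhg12 had 23.5, 26.3 and 27.0 TPM in erinacine S and 22.1, 21.3 and 21.8 TPM in DMSO at 48 h, and 22.6, 29.7 and 28.3 TPM in erinacine S and 31.1, 25.0 and 36.8 TPM in DMSO at 16 h. Snhg6, at 44.0 ± 2.18 TPM in erinacine S and 44.5 ± 1.68 TPM in DMSO at 48 h, and 41.1 ± 2.61 TPM in erinacine S and 45.9 ± 6.23 TPM in DMSO at 16 h (SD, n = 3 each), did not pass in any comparison. Of 22 tested genes of the nuclear RNA exosome and its adaptors, which degrade many unstable noncoding RNAs, 9 fell (40.9%, beside the same shares of all genes) and none rose in each treatment. Of 15 for nonsense-mediated decay, 4 fell (26.7%) in each treatment, and 1 rose in erinacine S and none in DMSO.

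The largest falls were of low-abundance members with no described function. Gm45849 had 2.16, 2.71 and 2.04 TPM in erinacine S and 2.67, 2.61 and 2.56 TPM in DMSO at 48 h, and 6.54, 7.64 and 11.7 TPM in erinacine S and 7.76, 9.35 and 7.86 TPM in DMSO at 16 h. It fell by 1.51 in erinacine S and by 1.36 in DMSO (limma adjusted p 0.00012 and 0.000191). AU020206 fell by 1.46 and by 1.13, Gm16702 by 1.24 and by 1.32, and 4930447M23Rik by 1.13 and by 1.13. Gm45733 fell by 1.39 in DMSO and differed by -0.41 in erinacine S, and it is the row that shares 69.3% of its words with Baz2a. The largest rise in DMSO was that of Gm9916, at chr3:118434770-118435997. It had 6.25, 8.25 and 9.98 TPM in erinacine S and 12.2, 13.5 and 13.2 TPM in DMSO at 48 h, and 4.64, 3.97 and 3.21 TPM in erinacine S and 5.49, 2.73 and 3.84 TPM in DMSO at 16 h. Its rise was 0.88 ± 0.20 SE in erinacine S and 1.51 ± 0.20 SE in DMSO (limma adjusted p 0.0068 and 0.000279). Gm10419 rose by 1.15 and 0.76, and its partner Gm42517, a protein-coding gene on the other strand whose start overlaps, rose by 1.68 and 1.55. 1500035N22Rik rose by 1.04 and 0.80 (in DMSO not without any one DMSO library other than 16 h replicate 1), and AL590503.1 rose by 0.84 in erinacine S (limma adjusted p 0.00275) and differed by 0.09 in DMSO.

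Divergent lincRNAs share a promoter region with a coding gene, and both were measured in 51 pairs. Of the 20 divergent lincRNAs in such pairs that fell in erinacine S, the coding partner fell in 3 and rose in 2. In DMSO 17 fell, with a falling partner in 3 and a rising one in 1. Of all protein-coding genes of at least 2 TPM, 16% fell and 17.8% rose in erinacine S, and 16.9% fell and 19.1% rose in DMSO. The called partners were few, and whether their falls or rises differ in frequency from those of coding genes in general was not tested. As a description, Pearson's r of the log2 fold changes across the 51 divergent pairs was 0.30 for time in erinacine S, 0.26 for time in DMSO, 0.48 for erinacine S at 48 h and -0.20 at 16 h, and across the 87 pairs with starts over 10000 bases apart it was 0.12, 0.07, 0.10 and 0.06. Pairs share libraries, and divergent partners can share reads where their exons overlap. Gm27030, 1153 bases from Zcchc14, fell by 0.99 in erinacine S and by 0.70 in DMSO, while Zcchc14 rose by 0.35 and 0.40. The DMSO call of Gm27030 was lost without 16 h replicate 1 or 2 or 48 h replicate 1 or 3. 2810032G03Rik and its partner Klhl29, 188 bases apart, both rose, by 0.46 each in erinacine S and by 0.38 and 0.47 in DMSO. The call of 2810032G03Rik was lost without erinacine S 48 h replicate 1 or 16 h replicate 1 or 3 in erinacine S, and in DMSO without any one DMSO library other than 48 h replicate 1.

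RefSeq gave a promoter window for 106 of the members, each of 300 bases around the start nearest to the deposited one. These windows held a median of 18 CpG dinucleotides and 57.5% G and C, against 7 and 52.7% over all 32851 promoter windows. The CRE, TGACGTCA on either strand, is the element bound by the activity-regulated factor CREB. It was found in 6 of the 106 windows (5.66%), and 1.79% of all windows hold it. These were 4 of the 41 windows of lincRNAs that fell in DMSO, none of 5 of those that rose and 2 of 60 of those not called. The letters of the CRE include a CpG, and the lincRNA windows hold more CpG than all windows, so these shares are not like for like. Of the 106 windows 5.66% held AP-1 and 6.60% the E-box, against 7.81% and 7.15% of all windows, and of the 41 that fell 2.44% and 4.88% did. The 4 were 4930447M23Rik, 1810044D09Rik, B230354K17Rik and 1300002E11Rik, and the other two were Mir9-3hg and Gm3764, whose window starts 7669 bases from the deposited end. A match says that the letters are present, not that a factor binds.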

How the data were processed

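RNA-seq of 12 libraries was analysed from a single table of TPM per gene that the authors deposited, with 0.0001 in place of 0. The submitters' processing notes name StringTie 2.1.3, HISAT2, SAMtools, Trimmomatic 0.36, bcl2fastq 2.20 and FastQC, and the build GRCm38.p5. Not given in the sources used here are their order, annotation release and strand setting. All 12 columns matched a sample title. Coordinates are those of the deposited table, and exons, hairpins and transcripts come from GENCODE M21 or RefSeq.

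The members and gene lists were chosen with earlier results of these data known. Genes with a mean of at least 1 TPM (15623) were transformed to log2(TPM + 1). The fit (limma 3.58.1, R 4.3.3) had 1 mean per group over the 12 libraries, eBayes with a trend, two-sided tests and Benjamini-Hochberg adjustment over all genes, and a threshold of 0.05. A fold change on this scale understates the change of low genes. Errors are standard errors of the fit or SD of 3 libraries. Since TPM keep no read depth, precision is given by the spread between libraries only. The fit was tested on simulated data, and repeated with other pseudocounts, filters, scalings, library weights, a replicate block and each library left out. Named lincRNAs are the 8 most abundant, the 4 smallest p per direction for erinacine S, the 6 largest called rises and falls with time, list members and those at the threshold; others (5033430I15Rik, hosts by position, 2810032G03Rik, those with shared words, motifs or a divergent partner) were chosen after their values were seen. Replicate numbers come from the sample titles. At 16 h, same-numbered erinacine S and DMSO libraries deviated together across genes (r 0.480, 0.185 and 0.510), and at 48 h they did not (-0.022, 0.107 and -0.192).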

Additional observations from a re-analysis of the deposited data

How the results depend on the processing

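With the replicate number as a block, 0 lincRNAs were called for erinacine S at 48 h and at 16 h and for their difference, 78 with time in erinacine S and 87 with time in DMSO; with a block within each time the erinacine S counts were again 0, so the block changed no count by over 1.5 times. Over the settings that each left out a library, counts ran from 0 to 2 for erinacine S at 48 h, 0 to 0 at 16 h, 0 to 0 for the difference, 54 to 84 for time in erinacine S and 59 to 103 for time in DMSO. The count of 2 arose without erinacine S 48 h replicate 1. A weight for each library gave 27 calls for erinacine S at 48 h (1599 of all 15623 genes) and 150 for time in erinacine S (9338 of all genes). Testing only genes of at least 5 TPM kept 123 members, with 50 calls in erinacine S and 56 in DMSO. Of the 11952 genes then tested, 4040 and 4331 were called. Of 127 counts, 5 moved by over 1.5 times in this way. No log2 fold change of a named lincRNA that was called reversed its direction. The median over the 224 for erinacine S at 16 h, which had no call, turned to 0.01 without erinacine S 16 h replicate 1, against -0.03 with all libraries. Other pseudocounts, filters, scalings, a robust fit, a fit of only the libraries compared and, added after seeing the data, TPM without the 3 rDNA rows left counts within that range. Of the 31 named lincRNAs called with time, 22 kept the call under all settings in DMSO and 23 of 31 in erinacine S; 96 single values lost and 8 gained a call, and the cause was not tested. Low rows vary most between libraries, and the unknown depth limits what can be said of them.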

Other observations

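Several lincRNAs followed single libraries rather than groups. AY036118 had 12.7, 0.634 and 0.799 TPM in erinacine S and 10.8, 0.461 and 0.0783 TPM in DMSO at 16 h, high in replicate 1 of both groups, while Gm42418, which it overlaps on the other strand, was highest in replicate 3. Neat1 also had its 2 highest values in replicate 1 of both groups at 16 h, 8.35 TPM in erinacine S and 6.14 TPM in DMSO. Gm12371, which starts 1219 bases from Lingo2 on the other strand, had 9.52, 2.64 and 2.79 TPM in erinacine S and 1.84, 1.80 and 2.08 TPM in DMSO at 48 h, with its highest value in the library that stood apart in its cell type markers. 2410018L13Rik had 12.4 ± 2.81 TPM in erinacine S and 8.49 ± 0.516 TPM in DMSO at 48 h, and 7.45 ± 0.492 TPM in erinacine S and 9.54 ± 1.89 TPM in DMSO at 16 h (SD, n = 3 each), so that erinacine S was the higher group at 48 h and the lower mean at 16 h. The difference of these effects was 0.78 ± 0.22 SE, with a limma adjusted p of 1.00, and 58.3% of its words occur in other transcripts.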
